A study of Homo sapiens with 12 samples.

Results

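MYC and 9 nucleolar proteins that build ribosomes were followed in prostate cancer cells in which GALNT7 was knocked down or overexpressed. The 10 genes, MYC, NCL, NPM1, FBL, NOP56, NOP58, DKC1, NOLC1, POLR1B and RRP9, were taken by name and found by their Ensembl identifiers among the 59424 genes of each table, and the choice was made with earlier results of these data known. All 10 passed the filter on low values in both cell lines. RNA sequencing was carried out on 12 libraries in 4 groups of 3 biological replicates. CWR22RV1 cells, a prostate cancer line, carried either a lentiviral control hairpin (shControl) or a GALNT7 knockdown construct (GALNT7 KD), while DU145 cells, another prostate cancer line, carried either a Lenti-ORF control (OE control) or GALNT7 itself (GALNT7 OE). All 4 are stable lines made by lentiviral transduction, and whether each is a pool of transduced cells or a clone is not given in the sources used here. GALNT7 is a Golgi enzyme that adds N-acetylgalactosamine, the first sugar of O-linked glycans, to secreted and membrane proteins. It acts on proteins to which other enzymes of its family have already added this sugar.

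MYC is a transcription factor that binds DNA as a heterodimer with MAX, most strongly at the hexamer CACGTG, known as the E-box. Genes for ribosome production are among its best known targets, and gain of MYC is a common event in prostate cancer. In the nucleolus, RNA polymerase I transcribes ribosomal RNA, small nucleolar ribonucleoproteins (snoRNPs) modify it, and a large set of assembly factors folds and cuts it into the small and large ribosomal subunits. Proteins of this kind are commonly abundant in growing cells.

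GALNT7 followed its labels in every library. In CWR22RV1 its normalised counts (reads divided by a library size factor) were 862, 1042 and 1093 in shControl and 481, 501 and 400 in GALNT7 KD, a log2 fold change of -1.11 (SE 0.129, adjusted p = 0.0051, limma). In DU145 they were 1051, 928 and 913 in OE control and 1988, 2221 and 2334 in GALNT7 OE, a log2 fold change of 1.18 (SE 0.0863, adjusted p = 8.0e-05, limma). Library depth was 18364512 to 24356910 reads assigned to genes. The prostate marker HOXB13 was high in CWR22RV1, at 5401 to 6048 normalised counts, and near absent in DU145, at 0 to 11.2. The epithelial keratins KRT8 and KRT18 were above 4479 in every library. The immune marker PTPRC did not exceed 2.10, and the endothelial marker PECAM1 stayed at or below 6.47 except for 49.3 in GALNT7 OE replicate 3.

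The start sites of the member genes were examined first, because the E-box is the letter pattern by which MYC is known. RefSeq promoter windows of 300 bases on GRCh38.p14 ran from 250 bases before the annotated start to 50 bases from it. They matched 7 of the 10 genes, with 9 windows in all. MYC was left out of this search, and no window was found for NOP58 or NOLC1. NPM1 and POLR1B had more than 1 window, and a gene was counted where any of its windows held a match. The hexamer CACGTG was in the window of 2 of the 7, FBL and RRP9, and was in 7.26% of 35116 promoter windows of the same length. The related hexamer CACGCG was read on either strand, with no match overlapping an E-box in these windows. It was found in 2 of the 7, NPM1 and FBL, and in 11.4% of all windows. The matches of NPM1 were all in 1 of its windows, the one shown in part below, and its window at chr5:171386866-171387165 held 0. Both percentages count windows and not genes. Neither hexamer was in the windows of NCL, NOP56, DKC1 or POLR1B. The stretches shown run from 150 bases before the start to 20 bases from it, with the hexamers in capitals, for the 4 members with the largest fold changes in GALNT7 OE and for RRP9, which has an E-box and did not pass the test.
FBL: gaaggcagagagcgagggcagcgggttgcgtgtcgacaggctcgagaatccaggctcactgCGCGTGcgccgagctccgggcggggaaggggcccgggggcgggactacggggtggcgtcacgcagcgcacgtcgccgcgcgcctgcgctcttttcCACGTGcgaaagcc
NPM1: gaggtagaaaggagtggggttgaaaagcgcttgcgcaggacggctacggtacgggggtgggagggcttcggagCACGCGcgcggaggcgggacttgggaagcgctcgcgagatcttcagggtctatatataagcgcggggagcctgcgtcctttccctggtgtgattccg
RRP9: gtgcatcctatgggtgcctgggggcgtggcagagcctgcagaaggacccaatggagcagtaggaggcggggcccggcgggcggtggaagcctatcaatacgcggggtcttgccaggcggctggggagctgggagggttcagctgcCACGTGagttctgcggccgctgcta
DKC1: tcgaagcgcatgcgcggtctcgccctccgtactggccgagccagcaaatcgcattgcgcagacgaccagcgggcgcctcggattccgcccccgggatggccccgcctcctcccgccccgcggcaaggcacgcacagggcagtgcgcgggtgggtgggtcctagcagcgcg
NCL: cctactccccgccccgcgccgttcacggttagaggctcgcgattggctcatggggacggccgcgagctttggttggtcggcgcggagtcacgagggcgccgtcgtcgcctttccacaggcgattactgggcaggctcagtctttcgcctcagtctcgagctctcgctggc
The FBL stretch lies at chr19:39846360-39846529 on the minus strand, and its E-box spans bases 7 to 12 counted from the start as 1. Its CACGCG match reads CGCGTG on the printed strand and spans bases -89 to -84. The NPM1 stretch, at chr5:171387699-171387868 on the plus strand, holds 1 of the 4 CACGCG matches of its window, of which 2 overlap each other further upstream. The RRP9 stretch, at chr3:51941885-51942054 on the minus strand, has its E-box across the start itself, from base -5 to base 1. The DKC1 and NCL stretches, at chrX:154762714-154762883 on the plus strand and chr2:231464465-231464634 on the minus strand, hold no capitals. FBL and DKC1, which had the largest fold changes of the members in GALNT7 OE, thus differ in these letters. A match is a description of the sequence only, and binding of MYC was not measured here.

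Knockdown of GALNT7 in CWR22RV1 cells was accompanied by lower NPM1, NCL and NOP56 mRNA, while the other 7 genes did not pass the test. Of the 10 members 3 were lower and 0 were higher (limma, adjusted p under 0.05), against 3.79% of 17906 genes tested called lower and 5.28% called higher, or 9.06% in either direction. No member passed in the higher direction at an unadjusted p under 0.05, by edgeR or by DESeq2 either, and both of those tools called 3 members lower. The members' log2 fold changes ran from -0.33 to 0.12 with a median of -0.11, while the median of all genes was -0.0063. The groups did not overlap for 4 members, NPM1, NCL, NOP56 and DKC1, and for 32.5% of all genes. In bulk RNA, fewer cells of a kind and less RNA per cell cannot be told apart.

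NPM1 (nucleophosmin; 5:171387116-171411137 in GENCODE 29 on GRCh38) is a histone and ribosome chaperone of the outer nucleolus. Its normalised counts were 31929, 33655 and 32076 in shControl and 25566, 26170 and 25669 in GALNT7 KD. Every knockdown library was below every control. The means were 32553 ± 957 and 25802 ± 323 (SD, n = 3 each), 1.26-fold lower after knockdown, and the log2 fold change was -0.33 (SE 0.0304, adjusted p = 0.0024, limma). This call was kept when any 1 library was left out, with adjusted p from 0.0086 to 0.019, and was lost without the variance trend in eBayes (adjusted p = 0.0501), where none (0) of the members passed.

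NCL (nucleolin; 2:231453531-231483641), an RNA-binding protein that acts on pre-ribosomal RNA, had 29995, 30713 and 28721 normalised counts in shControl and 26536, 25968 and 26056 in GALNT7 KD. The groups did not overlap. The log2 fold change was -0.19 (SE 0.0324, adjusted p = 0.019, limma), a 1.14-fold lower mean. Without shControl replicate 1 or 2 the adjusted p was 0.077 or 0.056, and without GALNT7 KD replicate 1 or 2 it was 0.066 or 0.053. NOP56 (20:2652145-2658393), a core protein of box C/D snoRNPs, which guide methylation of ribosomal RNA, had 6415, 6109 and 6329 in shControl and 5585, 5574 and 5488 in GALNT7 KD. Its groups did not overlap and its log2 fold change was -0.18 (SE 0.0388, adjusted p = 0.037, limma), but leaving out any 1 of the 6 libraries gave an adjusted p from 0.064 to 0.13.

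The other 7 members did not pass the test. MYC (8:127735434-127741434) had 7213, 6631 and 6883 normalised counts in shControl and 5971, 5260 and 6771 in GALNT7 KD. The third knockdown library lay inside the control range and the other 2 lay below it. The log2 fold change was -0.21 with a 95% confidence interval from -0.43 to 0.0075 (adjusted p = 0.20, limma), so a fall of the size seen for NPM1 was within the interval. FBL (fibrillarin; 19:39834458-39846414), the methyltransferase of box C/D snoRNPs, had 6636, 6771 and 6710 in shControl and 6682, 6521 and 6672 in GALNT7 KD. These groups overlapped and the interval, from -0.10 to 0.066, was narrow. NOP58 (2:202265716-202303666), the partner of NOP56 in the same particles, gave -0.11 (adjusted p = 0.34, limma). DKC1 (dyskerin; X:154762742-154777689), the pseudouridine synthase of H/ACA snoRNPs and a component of telomerase, had 3381, 3523 and 3522 against 3346, 3079 and 3271, without overlap but with adjusted p = 0.25 (limma). NOLC1 (10:102152176-102163871), a phosphoprotein that escorts snoRNPs, gave -0.0037 (adjusted p = 0.97, limma). POLR1B (2:112541915-112577150), the second largest subunit of RNA polymerase I, had the largest SE of the members (0.124), with 1183, 1525 and 1396 against 1144, 1441 and 1222 and an interval from -0.40 to 0.19. RRP9 (3:51933430-51941941), a protein of the U3 snoRNP, was the one member with a positive estimate, 0.12 (adjusted p = 0.38, limma).

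Overexpression of GALNT7 in DU145 cells was accompanied by higher mRNA of 8 of the 9 nucleolar genes and by lower MYC. Of the 10 members 8 were higher and 1 was lower (limma, adjusted p under 0.05). The background was high, since 22.9% of 18705 genes tested were called higher and 20.5% lower, or 43.5% in all. The groups did not overlap for any of the 10 members, nor for 55.3% of all genes. The 9 nucleolar genes had a median log2 fold change of 0.63 and a range of 0.18 to 1.16, beside a median of -0.011 over all genes. Scaling to the 75th percentile moved the median of all genes to -0.11 and the share of calls that were higher from 52.8% (4290 higher and 3842 lower) to 41.6% (3380 and 4737), and under it 6 members were higher and 1 lower.

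**Figure D1:**
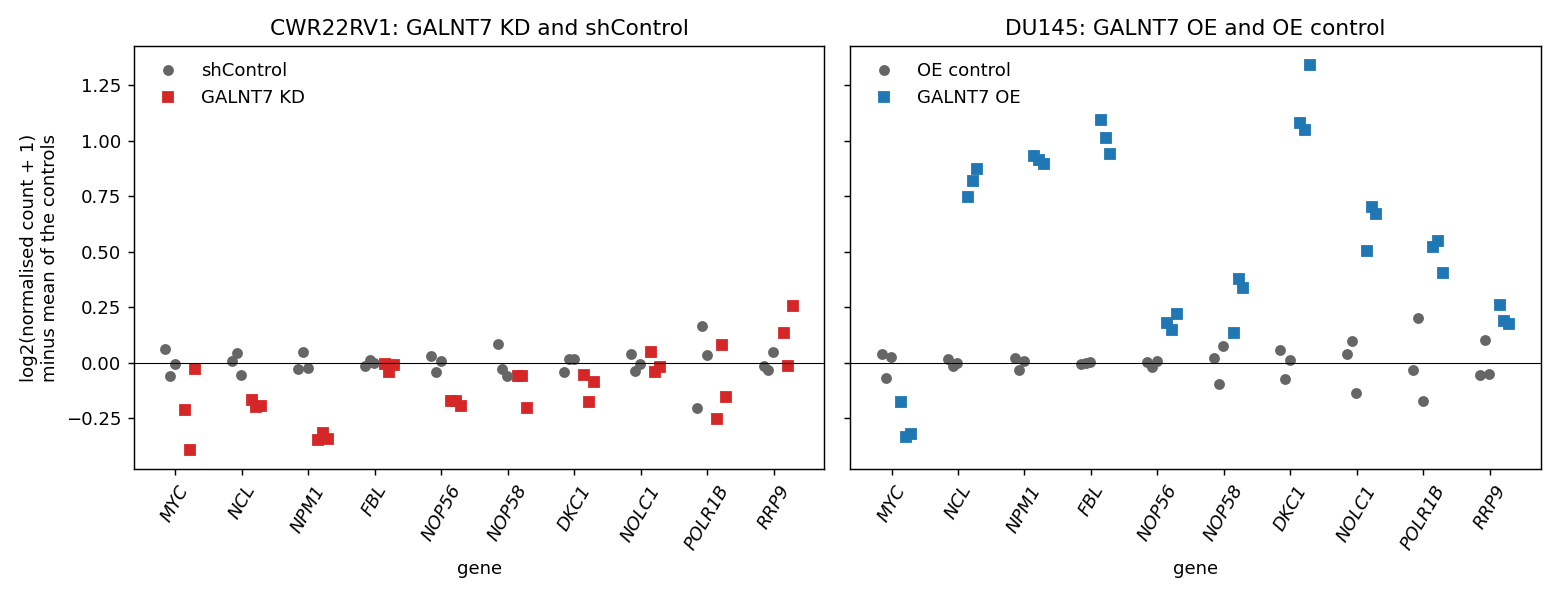
The 10 genes in each of the 12 libraries, plotted as log2(normalised count + 1) minus the mean of the 3 controls of the same cell line, with circles for controls and squares for treated libraries. GALNT7 OE libraries lie above OE control for all genes but MYC, which lies below, while in CWR22RV1 the groups separate for NPM1, NCL, NOP56 and DKC1.

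The abundant nucleolar chaperones NPM1, NCL and NOLC1 all rose. NPM1 had 7082, 6817 and 7001 normalised counts in OE control and 13280, 13105 and 12942 in GALNT7 OE. The replicates lay close together and the groups far apart, with a 1.88-fold higher mean and a log2 fold change of 0.91 (SE 0.0327, adjusted p = 4.8e-06, limma). NCL had 8738, 8562 and 8630 in OE control and 14527, 15268 and 15833 in GALNT7 OE. All libraries with added GALNT7 were higher, by 1.76-fold in the mean, with a log2 fold change of 0.81 (SE 0.0396, adjusted p = 1.4e-05, limma). NOLC1 had 4831, 5026 and 4272 in OE control and 6664, 7653 and 7490 in GALNT7 OE, which was 1.54-fold higher and more scattered in both groups. Its log2 fold change was 0.63 (SE 0.0789, adjusted p = 8.5e-04, limma).

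The box C/D proteins rose by unequal amounts. FBL had 2057, 2064 and 2065 normalised counts in OE control, the closest replicates of any member in that group, and 4406, 4164 and 3952 in GALNT7 OE. Its mean was 2.02-fold higher, with a log2 fold change of 1.02 (SE 0.0526, adjusted p = 1.9e-05, limma). NOP56 had 2152, 2119 and 2159 in OE control and 2427, 2375 and 2497 in GALNT7 OE. The groups did not overlap, but the difference was small, 0.18 on the log2 scale (SE 0.0459, adjusted p = 0.017, limma). NOP58 had 1393, 1284 and 1446 against 1509, 1786 and 1737, again without overlap, and a log2 fold change of 0.29 (SE 0.0839, adjusted p = 0.031, limma). After 75th percentile scaling the log2 fold changes of NOP56 and NOP58 were 0.083 (adjusted p = 0.19) and 0.19 (adjusted p = 0.11), neither past the threshold. Leaving out OE control replicate 1 or 2 ended the call of NOP56 (adjusted p = 0.0503 and 0.059) and of NOP58 (adjusted p = 0.069 and 0.094), and leaving out GALNT7 OE replicate 2 or 3 ended that of NOP58 (adjusted p = 0.094 and 0.088).

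The ratio of FBL to NOP56 within a library, which no scaling of libraries can change, was 0.962 ± 0.0103 in OE control and 1.72 ± 0.120 in GALNT7 OE (SD, n = 3 each). It was therefore higher in all 3 libraries with added GALNT7, with an exact permutation p of 0.1, the smallest that 3 against 3 libraries can give. The ratio of NOP56 to NOP58 was 1.56 ± 0.0796 and 1.46 ± 0.140, and its groups overlapped. In CWR22RV1 the ratio of FBL to NOP56 was 1.07 ± 0.0375 in shControl and 1.19 ± 0.0230 in GALNT7 KD, also without overlap. These ratios were chosen after the values were seen. The ratio shows unequal change between the genes and not which of them changed.

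DKC1, POLR1B and RRP9 stand for other branches of the pathway. DKC1 had 1305, 1190 and 1261 normalised counts in OE control and 2648, 2589 and 3170 in GALNT7 OE. It had the largest fold change of the members, 2.24-fold in the mean and 1.16 on the log2 scale (SE 0.0886, adjusted p = 9.7e-05, limma). POLR1B had 693, 814 and 628 in OE control and 1016, 1035 and 936 in GALNT7 OE, a log2 fold change of 0.49 (SE 0.106, adjusted p = 0.0092, limma). RRP9 had 267, 299 and 268 against 333, 317 and 314. Its groups were separate, but the log2 fold change of 0.21 (95% confidence interval -0.0071 to 0.42, adjusted p = 0.11, limma) did not pass.

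MYC went the other way. It had 5138, 4772 and 5094 normalised counts in OE control and 4424, 3969 and 4009 in GALNT7 OE, so every library with added GALNT7 was below every control. The means were 5001 ± 200 and 4134 ± 252 (SD, n = 3 each), 1.21-fold lower, with a log2 fold change of -0.28 (SE 0.0579, adjusted p = 0.0081, limma). This call was kept under all 15 alternatives tried, with log2 fold changes from -0.38 to -0.25. The ratio of NPM1 to MYC was also chosen after the values were seen. It was 1.39 ± 0.0302 in OE control and 3.18 ± 0.156 in GALNT7 OE. The lack of overlap follows from the opposite shifts of these genes and adds no separate result. In CWR22RV1 the ratio was 4.72 ± 0.329 in shControl and 4.35 ± 0.595 in GALNT7 KD, and the groups overlapped. In DU145 the fibroblast collagen COL1A1 also differed, at 287 to 419 normalised counts in OE control and 53.6 to 154 in GALNT7 OE, and PECAM1 stood out in GALNT7 OE replicate 3 as given above; their part in these results was not tested.

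**Figure D2:**
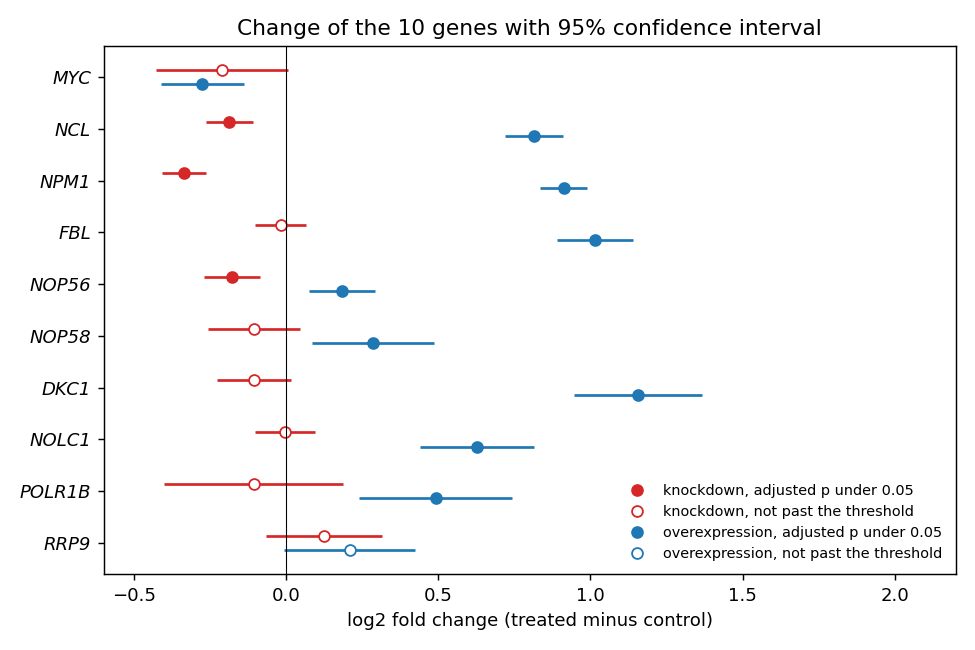
Log2 fold changes of the 10 genes from limma with 95% confidence intervals, in GALNT7 KD against shControl (CWR22RV1) and in GALNT7 OE against OE control (DU145). In DU145 DKC1 and FBL lie near 1 and MYC lies at -0.28, while in CWR22RV1 NPM1 has the lowest estimate at -0.33.

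Side by side, NPM1, NCL and NOP56 were past the threshold in both comparisons, lower after knockdown and higher after overexpression. Such an opposite pair of calls was found for 210 of the 16124 genes tested in both cell lines (1.3%). NPM1 kept both calls when any 1 library was left out. The knockdown call of NOP56 was lost without any 1 library (limma adjusted p from 0.064 to 0.13). Its overexpression call was lost under 75th percentile scaling (limma adjusted p = 0.19). The knockdown call of NCL was lost without some libraries (limma adjusted p up to 0.077). FBL, with 1.02 in DU145, had -0.018 in CWR22RV1, and DKC1, with 1.16, had -0.11. MYC had a negative estimate in both, -0.21 and -0.28, and passed only in DU145. The cell lines, constructs and normalisations differ between the comparisons, and the difference between them was not tested.

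Together the 10 genes held 0.503% to 0.519% of the normalised counts in shControl libraries and 0.445% to 0.450% in GALNT7 KD libraries. In DU145 they held 0.148% to 0.151% in OE control and 0.228% to 0.232% in GALNT7 OE. Neither pair of ranges overlapped. NPM1 and NCL had the highest normalised counts of the members in every group, so this share follows them more than the smaller members.

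Per kilobase of exon and per 1000000 normalised counts of the library, NPM1 had the highest level of the members in shControl, 432 ± 13.1 (SD, n = 3). NCL followed at 218, FBL at 157, MYC at 117 and NOLC1 at 106, each range separate from the next. NOP56 and NOP58, at 59.1 and 56.9, overlapped, and RRP9 (49.7), DKC1 (42.0) and POLR1B (11) were lowest. In OE control the order differed. NPM1 was again first, at 82.0, but MYC came next at 75.1, above NCL at 56.2 and NOLC1 at 53.5, which overlapped each other, and FBL at 42.8. NOP58 and NOP56, at 18.8 and 17.9, overlapped, and DKC1 (13.4), RRP9 (7.9) and POLR1B (5.1) followed. In GALNT7 OE MYC was at 61.0, after NPM1 at 152, NCL at 97.2, FBL at 85.1 and NOLC1 at 81.1. The length used was that of all annotated exons of a gene merged, 6929 bases for NCL and 3001 for MYC, and not that of the transcripts expressed. The order of the genes depends on it. In OE control the mean normalised count of NCL, 8643, was above that of MYC, 5001. The 2 tables were normalised separately, so levels were compared between genes within a cell line and not between lines.

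**Figure D3:**
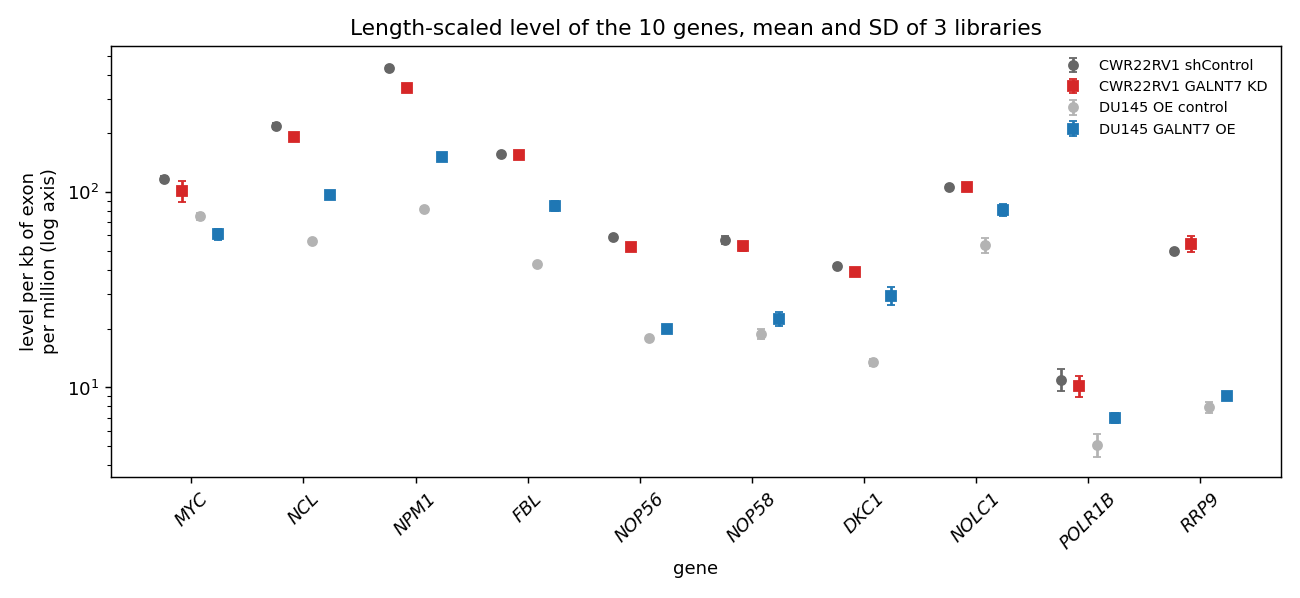
Level of each gene per kilobase of exon (all annotated exons of the gene merged) and per 1000000 normalised counts, on a log axis, as the mean and SD of the 3 libraries of each of the 4 groups. NPM1 is highest and POLR1B lowest in every group, and MYC ranks higher in OE control (75.1, behind NPM1 alone) than in shControl (117, behind NPM1, NCL and FBL).

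The members' neighbours in the pathway were read from 8 lists with 173 entries. Among 14 genes of the MYC, MAX and MXD network, 13 were tested in each line. MYCN was listed at 0 throughout. After knockdown 1 was lower and 1 higher, beside 3.79% and 5.28% of all genes. MAX, the partner of MYC, fell from 985 ± 85.0 to 687 ± 72.7, by 0.52 on the log2 scale (adjusted p = 0.031, limma), and MXI1, which competes with MYC for MAX, rose by a log2 fold change of 0.37 (adjusted p = 0.014, limma). The call of MAX was lost without any 1 library but GALNT7 KD replicate 3 (adjusted p up to 0.11), and that of MXI1 without shControl replicate 1 or 3 or GALNT7 KD replicate 1 (up to 0.065). In GALNT7 OE 5 were lower and 1 was higher, 6 of 13 in all, a share near the 43.5% of all genes called in that line. The MYC antagonists MXD4 (-0.89), MXD1 (-1.01), MNT (-0.72) and MXI1 (-0.43) and the glucose-sensing MLXIPL (-1.16) fell, and MLX (0.33) rose; MNT and MXI1 are outside the rule by which list genes were named and were added after their values were seen. MAX itself had -0.13 there (adjusted p = 0.13, limma). The call of MXD1 was lost without OE control replicate 2 or 3 or GALNT7 OE replicate 1, with adjusted p up to 0.072. PVT1, the long non-coding RNA gene next to MYC, did not pass in either line (log2 fold changes 0.11 and -0.11).

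Of 13 tested RNA polymerase I genes, 1 fell after knockdown, where 3.79% of all genes were called lower. It was TAF1B of the promoter selectivity factor (log2 fold change -0.76, adjusted p = 0.026, limma). Its call was lost without any 1 library but GALNT7 KD replicate 2 (limma adjusted p up to 0.093). In GALNT7 OE 6 rose and 1 fell, beside 22.9% and 20.5% of all genes, with a median log2 fold change of 0.36 against -0.011 over all genes. The polymerase subunits CD3EAP (1.24) and POLR1E (0.81) and the factor TAF1A (0.68) rose most, and TAF1C, of the same factor as TAF1A, fell (-0.96). ZNRD1 was listed at 0 in all libraries. Of 16 partners of the snoRNPs and nucleolar chaperones, 0 passed after knockdown by limma and by edgeR, 6 had an unadjusted p under 0.05, and DESeq2 called 1 higher and 1 lower. In GALNT7 OE 14 rose and 1 fell, with a median of 0.71. GAR1 (1.07), which sits with DKC1 in H/ACA particles, NAF1 (0.92), which loads them, and the ATPase RUVBL2 (1.08), of the complex that assembles box C/D particles, rose most, and PIH1D1 (-0.33), of the same assembly machinery, fell.

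The small subunit processome list had 1 gene higher and 2 lower of 44 tested after knockdown, no larger a share than the 9.06% of all genes called. It had 37 higher and 0 lower of 45 in GALNT7 OE, beside 22.9% and 20.5% of all genes, and no gene had a negative change there at an unadjusted p under 0.05 either. The median log2 fold changes were -0.048 and 0.53. The helicase DDX21 (1.02), NOL11 (0.99) and UTP20 (0.96) rose most in DU145. The large subunit list had 1 higher and 1 lower of 47 after knockdown, and 38 higher and 0 lower in GALNT7 OE, with medians of 0.019 and 0.57. EBNA1BP2 (1.36), PAK1IP1 (1.16) and MAK16 (1.08) rose most, and again 0 genes were lower at an unadjusted p under 0.05. Under the 3 other scalings the count of higher genes in GALNT7 OE was 32 to 36 for the small and 33 to 35 for the large subunit list, and no list gene was called lower.

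In CWR22RV1 genes of chromosome 12 stood apart, since 21.9% of 922 tested were lower against 2.80% of the 16984 others, with a median log2 fold change of -0.28. KRR1 and DDX47 (small subunit), NOP2 (large subunit), CDK4, PA2G4 and CDKN1B are on that chromosome and account for 6 of the list genes that fell after knockdown. With that chromosome left out, the remaining calls of the subunit lists were WDR3 (0.28) and WDR12 (0.33), both higher. None of the 10 members is on chromosome 12.

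Other genes known to be induced by MYC gave 1 higher and 3 lower of 26 tested after knockdown, beside 5.28% and 3.79% of all genes. Their median log2 fold change was -0.0028. In GALNT7 OE 23 were higher and 0 lower (0 also at an unadjusted p under 0.05), beside 22.9% and 20.5% of all genes. The median there was 0.78. After knockdown NME1 (0.24), a nucleoside diphosphate kinase, rose, and AIMP2 (-0.26), a scaffold of the tRNA synthetase complex, fell beside CDK4 (-0.27) and PA2G4 (-0.42). In GALNT7 OE ODC1, the first enzyme of polyamine synthesis, rose from 1543 ± 15.4 to 3889 ± 190 (log2 fold change 1.33, adjusted p = 6.8e-06, limma). TERT, the telomerase catalytic subunit, whose RNA partner DKC1 binds, had 42.0, 14.3 and 19.1 in OE control and 88.2, 53.6 and 153 in GALNT7 OE. Its log2 fold change was 1.94 (adjusted p = 0.019, limma) and its call was lost without OE control replicate 2 or 3 or GALNT7 OE replicate 3, with adjusted p up to 0.056. POLR3G, a subunit of RNA polymerase III, rose by 1.93 (adjusted p = 5.6e-05, limma).

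Genes known to be repressed by MYC moved in both directions. NDRG1, a stress-responsive gene on chromosome 8, rose after knockdown from 2211 ± 92.0 to 4485 ± 240 (log2 fold change 1.02, adjusted p = 5.1e-04, limma) and fell in GALNT7 OE from 9948 ± 223 to 3051 ± 266 (log2 fold change -1.71, adjusted p = 6.2e-06, limma). CDKN1A, which encodes the cell cycle inhibitor p21, rose in both, by 0.53 and 0.55. CDKN1B (-0.32) fell after knockdown. In GALNT7 OE NDRG2 (-0.67) and GADD45A (-0.51) fell and CDKN2B (0.32) rose, although the last call was lost under 75th percentile and quantile scaling and without OE control replicate 1 or 3, with adjusted p up to 0.060 in the latter. Over the 6 genes 2 rose and 1 fell after knockdown, where 9.06% of all genes were called, and 2 rose and 3 fell in GALNT7 OE, where 43.5% were.

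Of the 15 list genes named for the knockdown, 13 lost their call when some 1 library was left out, with their highest adjusted p between 0.061 (WDR12) and 0.13 (CDKN1B), and CDKN1A and NDRG1 kept it throughout. Of the 26 named for overexpression 23 kept theirs, the exceptions being MXD1, TERT and CDKN2B. None of these 15 and 26 changed direction under the alternatives tried, which were not summarised for MNT and MXI1 in GALNT7 OE.

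**Figure D4:**
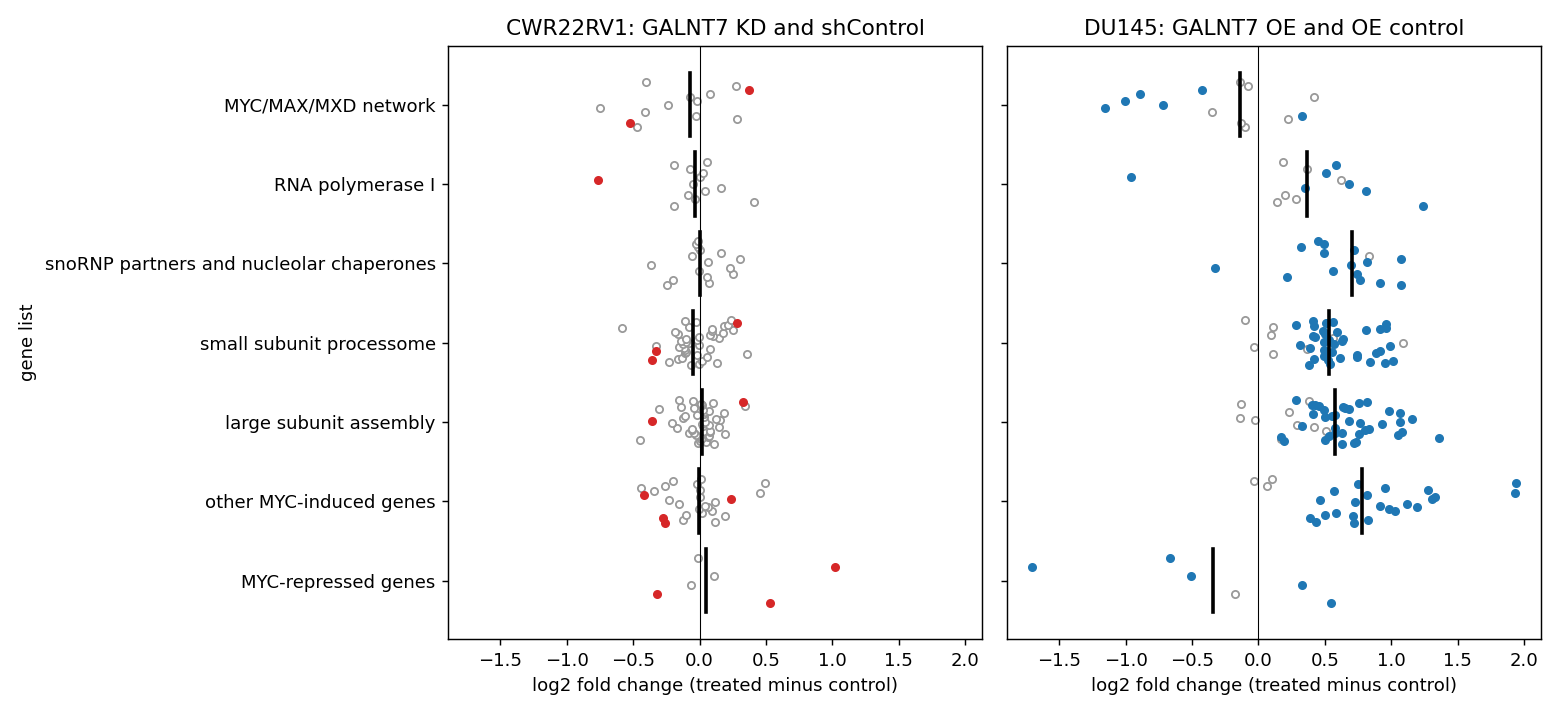
Log2 fold change of every tested gene of the lists other than the MYC locus neighbours, in CWR22RV1 (left) and DU145 (right); filled points passed the test and the black bar marks the list median. In DU145 the medians of the subunit assembly, snoRNP and MYC-induced lists lie between 0.53 and 0.78, while in CWR22RV1 they lie between -0.048 and 0.019.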

How the data were processed

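RNA was extracted with RNeasy and libraries were made with the TruSeq Stranded mRNA kit, per the labels. The submitters' processing notes name FastQC, Salmon, DESeq2, R 3.5.3 and hg38, with no role or order, and the annotation release is not given in the sources used here. The authors deposited 1 table per cell line of normalised counts (a signal: gene counts divided by a size factor per library), and every value was a whole multiple of the value of 1 read to within a tolerance of 0.01. No per-sample column was left unused (0).

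Each table was fitted separately with limma 3.58.1 (R 4.3.3; lmFit, eBayes with trend) on log2(normalised count + 1), over genes with a mean of at least 5 across the 6 libraries; p-values were adjusted by Benjamini-Hochberg over all genes tested, and 0.05 was the threshold. Fold changes are on that log2 scale, which understates changes of low genes. The labels call the 3 libraries of a group biological replicates but name no separate transductions, so p-values measure the spread between these samples. Replicates differed by more than sampling noise (mean chi-square per gene 8.97 to 24.5), and each was counted once. Counts were also recovered from the deposited normalised counts and tested with edgeR 4.0.16 and DESeq2 1.42.0 for the knockdown. The limma, edgeR and DESeq2 steps were tested on simulated data.

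Members and lists were chosen with earlier results of these data known. From each list and comparison up to 3 highest and 3 lowest fold changes past the threshold, with a mean of at least 50, were named, and for MYC the 5 genes most correlated with it. Gene positions and exon lengths came from GENCODE 29, which matched 56113 of 59424 identifiers (94.4%). Promoters came from RefSeq on GRCh38.p14, with MYC not analysed there. The result of 1 of the cell type markers fixed for these lines is not reported here.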

Additional observations from a re-analysis of the deposited data

How the results depend on the processing

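The log2 fold changes of the members kept their direction and side of the threshold in 150 recomputed values for the knockdown (17 alternatives) and in 136 for overexpression (15 alternatives), under alternatives to the pseudocount, filter, scaling, variance trend, replicate block, test and libraries. The exceptions were 16 and 14 lost calls (NCL, NPM1 and NOP56 in the knockdown; NOP56 and NOP58 in overexpression) and 4 reversals, all of NOLC1 in the knockdown, whose estimate near 0 ranged from -0.030 (without GALNT7 KD replicate 1) to 0.017 over the leave-outs and became 0.010 with quantile normalisation, 0.017 without shControl replicate 1, 0.015 without GALNT7 KD replicate 2 and 0.0042 without GALNT7 KD replicate 3. Without the trend in eBayes none (0) of the members passed in the knockdown, NPM1 missing by a small margin (adjusted p = 0.0501), NCL and NOP56 both at 0.16; at an adjusted p of 0.01 it was 1, and with an absolute log2 change of 0.5 or more also required it was 0 in the knockdown and 5 in overexpression. Leaving out 1 library gave 1 to 2 members in the knockdown and 7 to 9 in overexpression. NCL was also lost with quantile normalisation (adjusted p = 0.12) and NOP56 without a filter on low values (0.080).

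Over all genes the knockdown count of 1623 became 996 without trend, 2642 with DESeq2, 392 at an adjusted p of 0.01, 943 with an absolute log2 change of 0.5 or more, and 539 to 1336 with 1 library left out; the overexpression count of 8132 became 5303 at 0.01 and 5267 with 0.5 or more. With 1 library left out, knockdown calls were 0 to 2 in the MYC network, 0 to 1 for RNA polymerase I, 0 to 1 for the snoRNP partners, 0 to 2 for the small and 0 to 3 for the large subunit lists and 0 to 3 for the MYC-induced genes. Without chromosome 12 the calls were 1 for each subunit list and 2 for the MYC-induced genes. With 75th percentile scaling or quantile normalisation, list alternatives chosen after seeing the data, the snoRNP partners had 1 call and the large subunit list 4 in the knockdown, and with 75th percentile scaling the MYC locus neighbours had 1 in overexpression. Some of these fits used fewer genes or libraries, and the causes of the changes were not tested.

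Correlations of deviations from the group means were small. For libraries with the same number they were -0.011 to 0.075 in the knockdown and 0.016 to 0.043 in overexpression. For libraries with different numbers they were -0.064 to 0.074 and -0.045 to 0.0042. In overexpression the same-number values were thus all above the others. Whether the numbers pair the samples was not tested. With the replicate number as a block, 1002 genes were called in the knockdown, 2 RNA polymerase I genes and 1 MYC-induced gene were called there, and NOP56 (adjusted p = 0.075 in the knockdown and 0.0501 in overexpression) and NOP58 (0.056 in overexpression) missed the threshold. The tests on recovered counts were not run for overexpression, although there too every value was a whole multiple of the value of 1 read. That value was close to 1 in OE control replicate 3 (1.008) and GALNT7 OE replicate 1 (1.002). With 3 libraries a group, differences of the size of the intervals given for MYC and POLR1B in the knockdown could not be resolved.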

Other observations

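Across the 12 libraries, with log2(normalised count + 1) centred on the mean of each cell line, the genes whose pattern was most like that of MYC among 11815 genes were MFSD12 (Pearson r = 0.97), CLCN7 (0.97), MIEF2 (0.97), NAT8L (0.96) and BAHCC1 (0.96). The libraries fall into treated and control groups that share these differences, so the values describe these libraries only. The 9 nucleolar genes had r to MYC from -0.65 (NOLC1) to -0.10 (NOP56) on the same scale. Among themselves NCL and NPM1 were closest (0.98), with NCL and DKC1 also at 0.98 and FBL and DKC1 at 0.97, and NOP58 and RRP9 were least alike (0.12).

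NCL, NOP56, NOP58 and DKC1 host genes of small RNAs within their gene spans. GENCODE 29 places 16 such genes inside these 4 hosts, 14 of snoRNAs and 2 of miRNAs, and none exceeded 2.80 normalised counts in any library of this mRNA protocol. Few reads were assigned to annotated processed copies, and how many of their reads were assigned to the parent genes was not measured. The 45 annotated pseudogenes of NPM1 together held 0.0891% to 0.288% of the NPM1 count in a library, and those of NOP56 held 0.826% to 1.68%.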
